A study of Mus musculus with 12 samples.

Results

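Levels of poly(A) RNA were compared between Mettl3 knockout (KO) and wild-type (WT) mouse embryonic stem cells (ESCs) at 0, 4 and 8 h after actinomycin, a drug that stops transcription. The comparison holds 6 of the 12 libraries of the series, 1 for each genotype at each hour. The other 6 come from embryoid bodies (EBs), aggregates that differentiate from ESCs in serum medium. Transcript entries of the deposited table were kept when their mean level over the 6 ESC libraries was at least 50, which left 11682 of 19708 entries (59.3%). All cells were of the C57BL/6 strain. ESCs of both genotypes were grown without serum in N2B27-based medium that held LIF, CHIR99021 (a GSK3 inhibitor) and PD0325901 (a MEK inhibitor), the last 2 together known as 2i. The 3 WT groups and the 3 Mettl3-KO groups therefore differ by genotype and, within a genotype, by hours in actinomycin. Which part of Mettl3 was removed, how many KO lines were used and whether the 3 hours of a genotype came from 1 culture is not stated in the labels.

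Mettl3 is the catalytic subunit of the nuclear complex that methylates adenosines inside mRNAs, giving N6-methyladenosine (m6A). Mettl14, Wtap, Virma and the RNA-binding subunits Rbm15 and Rbm15b belong to the same complex, and it prefers sites in short sequence contexts such as GGACT. Reader proteins of the Ythdf family bind the methylated sites and are known for shortening the life of the transcripts that carry them. In naive ESCs, the state that 2i medium keeps, many pluripotency transcripts are known to be methylated, and cells without Mettl3 are known for leaving that state poorly.

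The values are the authors' normalized levels, and differences are given as log2 KO/WT after adding 10.8 to each level, which is 1 ppm of the mean column total of the ESC libraries. The column totals of the 6 libraries lay between 1.01e+07 and 1.11e+07. The steps between low values correspond to 307442 to 480158 read equivalents per library, an inference from the values, so a mean level of 50 rests on 1.53 to 2.18 read equivalents in a library. The 0 h libraries give the untreated level and have no replicate, so that no test was made at 0 h. The mean of the 3 hourly differences was tested by limma with the hour as a factor. The variance used joins the entry's own spread over the hours with a trend pooled over entries of like level. That trend has the larger weight (15.5 degrees of freedom, against 2 for the own spread), so an entry with a wide own spread can pass. Below, "called" means a limma adjusted p under 0.05 over all 11682 entries. Where a library was at 0, a fitted or hourly difference depends on the value added and is no bound. The spread over the hours holds library noise and any change of the difference with time, and it does not hold the variation between cultures or KO lines. At 4 and 8 h a level also reflects how much of each transcript was lost after transcription stopped.

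Mettl3 itself (NM_019721, chr14:52294841-52308741, GRCm38) had levels of 251, 64.8 and 113 in the WT libraries of 0, 4 and 8 h and of 98.1, 65.4 and 41.8 in the KO libraries. The KO level was the lower of the pair at 0 and 8 h and about equal at 4 h, and the 95% counting intervals at 0 h overlapped (125 to 450 in WT, 26.1 to 254 in KO). Its mean difference was -0.83 ± 0.60 (SE), with a limma adjusted p of 0.431. A tag at the 3′ end can lie outside a deleted part, so these levels do not check the genotype. Of the ESC markers, all 10 were kept in the fit, and Pou5f1, the pluripotency factor Oct4, stood between 15832 and 41599 in every library. Endoderm, neural, mesoderm and blood markers summed to levels between 58.4 and 5401 per library, against 45870 to 90614 for the ESC markers.

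In the untreated libraries, 1642 entries (14.1%) were more than 2-fold higher in KO and 1299 (11.1%) more than 2-fold lower. The 95% counting intervals of the KO and WT levels lay apart for 389 of the higher entries (3.33% of all) and for 343 of the lower ones (2.94%). The sign at 0 h was kept at 4 and 8 h by 64.4% of the entries that were past 2-fold higher and by 40.2% of those past 2-fold lower. Over all entries, the difference had the same sign at the 3 hours for 3278 entries higher in KO (28.1%) and 1883 lower (16.1%), and 575 (4.92%) and 163 (1.4%) of these were past 2-fold at every hour. limma called 948 entries higher (8.12%) and 341 lower (2.92%), 1289 in all (11.0%), of which 922 and 340 had the same sign at the 3 hours. These shares, 8.12% higher and 2.92% lower, are the background for every list count given below. The median of all entries was 0.02 at 0 h, 0.22 at 4 h and 0.30 at 8 h, so the later libraries leaned to KO. When each library was scaled by the median of ratios, which moved the median of the mean difference from 0.18 to 0.04, 824 entries were called higher and 634 lower. The share of higher calls was 73.5% with the deposited scaling and 56.5% with that scaling. The calls also rest on limma's variance trend. With no trend 0 entries passed in either direction, although 2236 had an unadjusted p under 0.05, against 2871 with the trend. Without the 4 h libraries 168 entries were called higher and 64 lower, and without the 8 h libraries 553 and 334. Without the 0 h libraries, so with treated cells alone, 1352 were called higher, more than with all hours, and 338 lower.

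The called rises and the called falls had different courses over the hours, which are described here without a test. Among the 922 rises with the same sign throughout, the median difference was 1.08 at 0 h, 1.93 at 4 h and 2.24 at 8 h. From 0 to 8 h the difference of 52.0% of them grew by more than 2-fold, and 4.23% narrowed by as much. Among the 340 falls the medians were -1.08, -1.11 and -1.01, and 85% moved by less than 2-fold from 0 to 8 h. The spread over the hours enters the test, so calls favour differences that agree over time. Small differences are favoured most in this way, and the steadiness of the falls is in part selected. Of all entries, 27.8% moved up and 12.3% moved down by more than 2-fold between those hours. The falls were also the more abundant group, with a median level of 1894 against 466 for the rises.

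**Figure D1:**
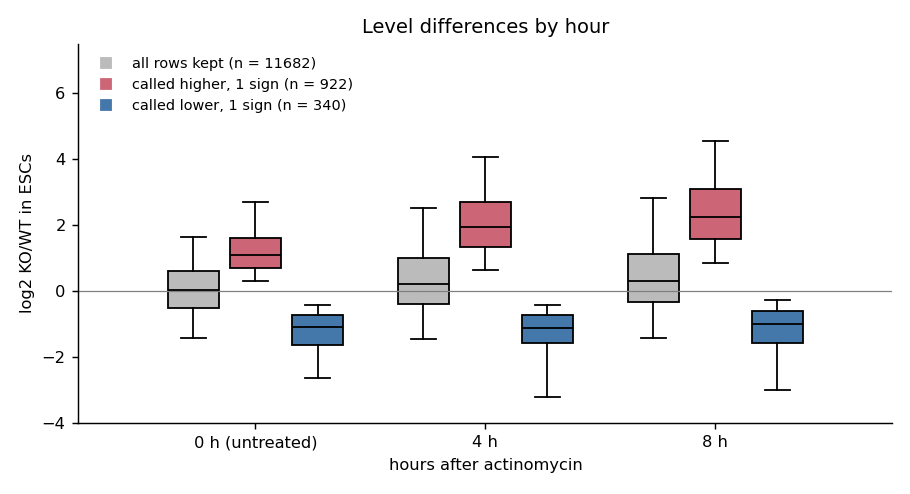
Box plots of log2 KO/WT in ESCs at 0, 4 and 8 h after actinomycin for all 11682 entries kept (grey), the 922 called higher with the same sign at each hour (red) and the 340 called lower (blue). Boxes span the middle 50% of entries, black lines are medians and whiskers reach the 5th and 95th percentiles. The red medians climb from 1.08 to 2.24 while the blue ones stay between -1.11 and -1.01.

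The largest untreated rises were in transcripts that WT ESCs hardly held. Krtdap, a secreted protein of differentiating keratinocytes, was at 0, 29.7 and 32.7 in WT and at 533, 527 and 454 in KO. C1ql1, a secreted C1q-domain protein of the nervous system, was at 0, 50 and 32.7 in WT and at 392, 349 and 867 in KO. Both were higher in KO at every hour, with no overlap between the genotypes. Against the limit of 3 read equivalents that a level of 0 allows, Krtdap was at least 7.74-fold and C1ql1 at least 5.69-fold higher in KO at 0 h. The entry NR_001592, for which the gene tables used here give no symbol, was at 132, 162 and 118 in WT and at 4677, 6337 and 5771 in KO. It had the largest called rise, 5.24 ± 0.30 (SE; limma adjusted p = 9.3e-09). Sp5, a transcription factor and Wnt target, and Fat2, an atypical cadherin, were at 0 in the WT 0 h library and at 246 and 237 in the KO one, and both were called. Hes5, a Notch target, and Cd79b, a B cell receptor subunit, had equally large values at 0 h (222 and 261 in KO, 0 in WT). Neither was called, and Hes5 was at 0 in KO at 8 h and Cd79b at 0 in KO at 4 h.

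Trophoblast factors and simple-epithelium keratins were higher in KO, in untreated cells too. Of the 12 trophoblast list members kept, 7 were called higher (58.3%, against 8.12% of all entries) and 0 lower. Their median difference was 2.34 at 0 h, 2.51 at 4 h and 2.47 at 8 h, against 0.02 to 0.30 for all entries. With levels of 0 set to their limit of 3 read equivalents, the 3 medians were 1.02, 1.44 and 1.27. Measured in this way, the median at 0 h was the largest among the lists with at least 10 entries kept, while the keratin list was higher at 4 h (1.46) and the Myc family (1.39) and the m6A writers (1.31) at 8 h. Of the 24 keratin and epithelial junction genes kept, 13 were called higher (54.2%) and 0 lower. Krt13, a keratin of stratified epithelia that is not in that list, was called lower (-2.94 ± 0.85 SE, limma adjusted p = 0.0342), with 114, 174 and 124 in WT and 0, 0 and 49.4 in KO. The promoters of the 3 keratin genes in both lists are shown because Tfap2c, which encodes the trophoblast and epithelial factor AP-2γ, rose with them. Each is the 250 bases before the RefSeq start on GRCm38.p6, and capitals mark matches to GCCNNNGGC, the motif of AP-2 factors, which reads the same on both strands.
Krt8 (chr15:102004343-102004592, minus strand): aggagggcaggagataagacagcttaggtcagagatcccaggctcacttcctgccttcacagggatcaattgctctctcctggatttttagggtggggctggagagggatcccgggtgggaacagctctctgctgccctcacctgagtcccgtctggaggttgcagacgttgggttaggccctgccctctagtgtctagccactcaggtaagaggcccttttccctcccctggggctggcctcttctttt
Krt18 (chr15:102027966-102028215, plus strand): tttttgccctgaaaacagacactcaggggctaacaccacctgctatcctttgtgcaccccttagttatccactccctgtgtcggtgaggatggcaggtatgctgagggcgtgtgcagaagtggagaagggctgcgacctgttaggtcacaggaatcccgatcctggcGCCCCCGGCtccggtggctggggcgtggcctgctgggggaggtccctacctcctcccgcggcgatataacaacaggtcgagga
Krt7 (chr15:101412153-101412402, plus strand): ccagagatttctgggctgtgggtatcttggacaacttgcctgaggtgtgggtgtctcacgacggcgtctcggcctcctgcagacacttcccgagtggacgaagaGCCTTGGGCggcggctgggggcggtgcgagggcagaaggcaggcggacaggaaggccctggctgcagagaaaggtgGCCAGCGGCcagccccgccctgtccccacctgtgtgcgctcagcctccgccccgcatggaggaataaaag
The motif occurred 0 times in the Krt8 window, 1 time in that of Krt18 and 2 times in that of Krt7. It was found in 13.7% of all 32851 promoters of the table, in 20.6% of those of the genes kept, in 23.8% of those called higher and in 21.9% of those called lower, so the called genes were close to the genes kept.

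Krt8 and Krt18 encode the type II and type I keratins that pair in simple epithelia and in the first trophoblast cells. Krt8 was at 108, 195 and 101 in the WT libraries of 0, 4 and 8 h and at 1213, 1586 and 1770 in KO, with no overlap and a mean difference of 3.44 ± 0.38 (SE; limma adjusted p = 1.84e-05). Krt18 was at 91.8, 0 and 70.7 in WT and at 1028, 464 and 397 in KO. Krt7, a type II keratin of trophoblast and ducts, was at 0 in every WT library and at 125, 118 and 283 in KO. Measured against 3 read equivalents, Krt7 was at least 1.82-, 1.60- and 2.88-fold higher in KO at 0, 4 and 8 h. Tfap2c was at 192, 31.2 and 22.9 in WT and at 1538, 917 and 402 in KO, so the KO libraries all lay above the WT ones although both genotypes were lower at the later hours (difference 3.67 ± 0.46, limma adjusted p = 6.95e-05). Rhox6 and Rhox9, X-linked homeobox genes of placenta and germ cells, rose by 3.23 ± 0.57 and 3.22 ± 0.82, and reads of such close paralogs may be shared between them. Rhox9 was at 0 in WT at 0 and 8 h, and there at least 1.57- and 4.53-fold higher in KO. Ascl2, a trophoblast bHLH factor named here after its values were seen, was called at 2.76 ± 0.86, but at 0 h it stood at 96.0 in WT and 152 in KO. At 4 h it was at 0 in WT and at 349 in KO, at least 4.70-fold higher. At 8 h WT was again at 0, and the KO level of 55.3 lay under the limit of 98.1 that this 0 allows.

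The defining trophoblast markers were not all present. Of the 12 markers, Elf5, Prl3d1 and Tpbpa were at 0 in all 6 libraries, Cdx2 was between 18.6 and 20.9 in KO and at 0 in WT, and Eomes was between 0 and 95.5 in WT and between 51.3 and 81.1 in KO. The summed level of the 12 was 319 to 562 in WT and 3004 to 4276 in KO, and Krt8, Krt18, Krt7 and Tfap2c carried most of it. The part of any other cell type in these sums was not tested. In bulk RNA, more cells of a type and more RNA per cell cannot be told apart.

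Among the junction genes, 3 tight-junction claudins of the list were called higher. Cldn3 was at 14.7, 21.8 and 32.7 in WT and at 356, 285 and 166 in KO, a difference of 3.02 ± 0.62 (SE; limma adjusted p = 0.00468). Cldn7 rose by 2.47 ± 0.54 and Cldn6, a claudin of early embryonic epithelia, by 2.03 ± 0.57. Cldn4 and Cdh1, abundant epithelial genes outside the naming rule, were picked after their values were seen. Cldn4 was at 841, 298 and 215 in WT and at 1869, 1789 and 1861 in KO. Cdh1, the E-cadherin of ESC and epithelial contacts, was at 4604, 3499 and 4047 in WT and at 9356, 9978 and 7727 in KO, with hourly differences of 1.02, 1.51 and 0.93.

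Wnt ligands, receptors and targets were tested as a list because CHIR99021 in the medium acts on that pathway, whose secreted ligands bind frizzled receptors and stabilise β-catenin. Of 21 members kept, 6 were called higher (28.6%, against 8.12% of all entries) and 0 lower (2 lower with scaling by the median of ratios). The list median was 0.66 at 0 h. Wnt7b, a ligand, was at 36.7, 0 and 32.7 in WT and at 500, 660 and 490 in KO, a difference of 4.30 ± 0.60 (SE; limma adjusted p = 0.000208). The receptor Fzd2 was at 20.7, 0 and 0 in WT and at 280, 457 and 176 in KO. Every KO library lay above every WT library for both genes. The receptor Fzd7 was called at 2.81 ± 0.83, but its 0 h levels were alike (179 in WT, 177 in KO). Lgr4, an R-spondin receptor, rose by 2.42 ± 0.50, and Znrf3, the ubiquitin ligase that removes frizzled receptors, by 2.1 ± 0.51.

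Several contractile and surface genes were called higher. Of 33 actin and focal adhesion genes kept, 8 were called higher (24.2%, against 8.12% of all entries), 1 lower (4 with scaling by the median of ratios) and 24 neither. The medians of that list were 0.32, 0.18 and 0.54, against 0.02, 0.22 and 0.30 for all entries. S100a6, a calcium-binding protein, was at 1247, 1752 and 1696 in WT and at 4471, 7003 and 8247 in KO. The tropomyosins Tpm1 and Tpm4 rose by 1.84 ± 0.45 and 2.02 ± 0.51, the integrin Itgb5 by 2.28 ± 0.39 and the annexin Anxa2 by 1.52 ± 0.44. Of 19 interferon-type genes kept, 3 were called higher (15.8%, against 8.12% of all entries) and 0 lower. The 3 encode antiviral membrane proteins. Bst2 was at 480, 653 and 572 in WT and at 1506, 1840 and 2176 in KO. Ifitm3 and Ifitm1 rose by 1.35 ± 0.27 and 1.05 ± 0.27, and Ifitm1 had its smallest difference at 4 h (1.39, 0.50 and 1.27). The median of the interferon list was 0.06 at 0 h, close to that of all entries. The summed level of 10 fibroblast and feeder markers was 538 to 1887 in WT and 904 to 1392 in KO, so the genotypes overlapped, and 0 of the 4 kept were called. Of the 12 entries kept of a longer fibroblast list, S100a6 was called higher and Fn1, fibronectin, lower.

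The largest rises of abundant transcripts divided into those that stood at 0 h as they did later and those that widened. Klhl13, an X-linked adaptor of the Cul3 ubiquitin ligase, was at 336, 336 and 617 in WT and at 4484, 4659 and 5605 in KO, and its hourly differences were 3.70, 3.75 and 3.16. Hspb8, a small heat shock protein, was at 725, 298 and 144 in WT and at 5247, 3523 and 3072 in KO. Its difference went from 2.84 at 0 h to 4.32 at 8 h. Avpi1, a small vasopressin-induced protein, went from 2.28 to 4.21.

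Klf2 and Mycn were among the transcripts that widened. Klf2 (NM_008452), a naive pluripotency factor, was at 5550, 214 and 125 in WT and at 13480, 8516 and 5555 in KO. The WT level dropped steeply after actinomycin while the KO level at 8 h was about that of untreated WT cells, and the hourly differences were 1.28, 5.24 and 5.36 (mean 3.96 ± 0.50, limma adjusted p = 8.85e-05). Mycn, the Myc family member of ESCs, was at 1296, 72.8 and 24.9 in WT and at 2687, 2417 and 1264 in KO, with hourly differences of 1.05, 4.86 and 5.16. Plekhf2, an endosomal PH-domain protein, was at 1724, 336 and 102 in WT and at 3882, 3874 and 2854 in KO. The same course was seen in Tmem11, a mitochondrial inner membrane protein (1.28, 4.46 and 4.75), and in Rpp25l, which resembles a subunit of ribonuclease P (1.63, 4.50 and 4.32). Taf5l, a subunit of SAGA-type coactivators, had 1.38, 3.14 and 5.19. These 6 transcripts were all more than 2-fold higher in the untreated KO library too. Trp53rkb, a kinase of the KEOPS complex, had 1.52 at 0 h and 5.94 at 4 h, and reads from its close copy Trp53rka may be counted with it. At 8 h it was at 0 in WT and at 2152 in KO, at least 21.9-fold higher.

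**Figure D2:**
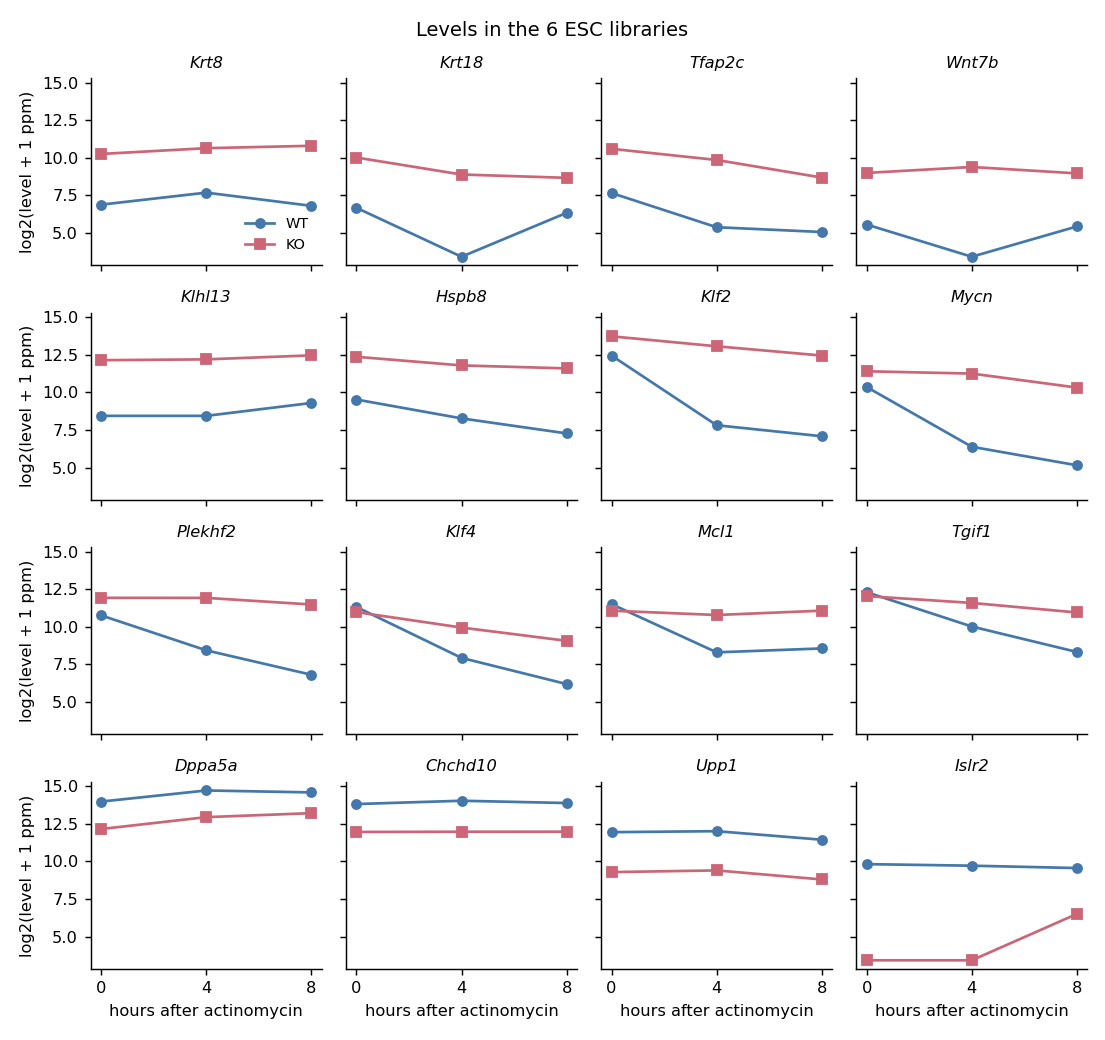
Levels of 16 genes in the 6 ESC libraries as log2(level + 1 ppm), against hours after actinomycin (WT blue circles, KO red squares, 1 library per point). The top row and Klhl13 and Hspb8 lie apart at every hour, Klf2, Mycn and Plekhf2 start 1.05 to 1.28 apart and widen, Klf4, Mcl1 and Tgif1 cross, and the bottom row is lower in KO throughout.

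A further set of abundant transcripts was lower in untreated KO cells and higher at 4 and 8 h. This pattern was seen in 211 of the 1919 entries with a mean level of at least 1000, and the opposite one in 90. Klf4, a naive pluripotency factor and LIF target, was at 2547, 235 and 62.8 in WT and at 2008, 981 and 528 in KO, giving -0.34, 2.01 and 2.87. Mcl1, an anti-apoptotic Bcl2 protein with a short-lived mRNA, was at 2902, 306 and 368 in WT and at 2144, 1756 and 2145 in KO. Tgif1, a repressor of TGF-β signalling, had -0.26, 1.57 and 2.62, and the mitochondrial ribosomal protein gene Mrps18a had -0.03, 1.59 and 2.09. These 4 were called for the mean of the hours, and for them that call describes treated and not untreated cells. The 5 largest examples of the opposite order, among them Eif3e, were not called.

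Pluripotency genes moved in both directions. Of 18 core genes kept, 4 were called higher (22.2%) and 3 lower (16.7%), or 5 lower with scaling by the median of ratios. Of 20 naive factors, 3 were called higher (15%) and 2 lower (10%), against 8.12% and 2.92% of all entries. The naive median was -0.52 at 0 h, 0.01 at 4 h and 0.69 at 8 h. Its sign for the mean of the hours depended on the scaling (0.09 as deposited, -0.06 by the median of ratios), and so did that of the core list (0.09 and -0.07). The 3 core falls, Pou5f1, Dppa5a and Tdgf1, were in abundant transcripts and past 1.5-fold at each hour. Pou5f1 was at 32682, 41599 and 41154 in WT and at 15832, 21655 and 21898 in KO, a difference of -0.97 ± 0.08 (SE; limma adjusted p = 5.27e-07). Dppa5a, an RNA-binding protein of ESCs, was at 16040, 26749 and 24456 in WT and at 4528, 7834 and 9408 in KO, or -1.66 ± 0.12. Tdgf1, the Nodal coreceptor Cripto, fell by 1.5 on the log2 scale. Every KO library lay below every WT library for these 3. The 2 naive falls changed more over the hours. Tfcp2l1 had -0.43, -0.87 and -1.17, and the genotypes overlapped (2597 in KO at 0 h, 2444 in WT at 8 h). Tet2, which oxidises methylcytosine, had -2.74, -1.60 and -0.28, from 2586 in WT and 377 in KO at 0 h to 610 and 502 at 8 h.

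The 4 core rises were larger at 4 and 8 h than at 0 h. Sox2, the partner of Oct4, was at 2671, 235 and 356 in WT and at 4458, 1704 and 961 in KO, with hourly differences of 0.74, 2.81 and 1.41. Eras, a Ras-like protein of ESCs, had 0.63, 3.02 and 2.81, and Gdf3, a TGF-β ligand, 0.40, 0.94 and 1.51. Utf1, one of the ESC markers, had 0.42, 1.04 and 1.14. Of the 3 naive rises, Klf2 and Klf4 are given above. The third, Dppa3, known as Stella, was at 129 in WT and 529 in KO at 0 h and had its smallest difference at 8 h (1.95, 3.55 and 1.36). Nanog was at 4057, 2239 and 1508 in WT and at 4187, 2451 and 2418 in KO and was not called (0.28 ± 0.21, limma adjusted p = 0.454). Zfp42, known as Rex1, was at 8661, 977 and 408 in WT and at 4011, 2554 and 1833 in KO, so it was 2-fold lower in the untreated KO library and higher afterwards, and it was not called (limma adjusted p = 0.229). Esrrb crossed in the same way (-0.68, 0.43 and 1.53) and was not called. Of the de novo DNA methyltransferase genes, the cofactor gene Dnmt3l fell by 1.11 on the log2 scale, from 12782 to 5718 at 0 h, while Dnmt3b rose by 1.29.

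Partners and readers of Mettl3 were given as a list for their role in the same pathway. Of 10 writer complex genes kept, 3 were called higher (30%, against 8.12% of all entries) and 0 lower. Rbm15 was at 497, 167 and 93.6 in WT and at 826, 1451 and 1068 in KO, and Rbm15b was at 219, 193 and 184 in WT and at 863, 1106 and 1347 in KO. Rbm15 widened, while Rbm15b was already 1.92 apart at 0 h, and Virma rose by 1.08 ± 0.33. Of 11 readers and erasers, 3 were called higher (27.3%) and 2 lower (18.2%, against 2.92% of all entries). Ythdf2, the cytoplasmic reader that recruits deadenylases, was at 782, 462 and 326 in WT and at 2752, 2510 and 2894 in KO (2.44 ± 0.30, limma adjusted p = 6.21e-05). Ythdf1 rose by 2.08 ± 0.43 and the nuclear reader Ythdc1 by 1.58 ± 0.38. Igf2bp3, a reader known for stabilising its targets, was at 855, 858 and 769 in WT and at 184, 347 and 314 in KO. The other called fall was Hnrnpa2b1 (-0.46 ± 0.14).

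Most p53 targets and apoptosis regulators were not called, but the p53 list leaned up. Of 27 p53 list members kept, 5 were called higher (18.5%, against 8.12% of all entries) and 0 lower (1 lower with scaling by the median of ratios). At all 3 hours 15 of them (55.6%) were higher in KO, against 28.1% of all entries. The list medians were 0.38, 0.71 and 1.14, against 0.02, 0.22 and 0.30 for all entries. One of the 5 called was Trp53rkb, which is a regulator of p53 and not a target. Phlda3, which blocks Akt at the membrane, was at 1555, 396 and 201 in WT and at 1859, 2280 and 1985 in KO, so that it differed by only 0.26 before treatment. Bbc3, the death protein Puma, had 0.38, 1.31 and 4.15, and Mdm2, the ligase that removes p53, had 0.40, 1.38 and 1.51. Aen, a p53-induced nuclease, was about 2-fold higher at 0 h already. Of 22 apoptosis regulators, 3 were called higher (13.6%, against 8.12% of all entries) and 0 lower, namely Bbc3, Mcl1 and Bcl2l1. Bcl2l1, the survival protein Bcl-xL, was at 429, 125 and 232 in WT and at 1282, 1454 and 1067 in KO.

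Falls were frequent in glycolysis. Of 21 glycolysis genes kept, 8 were called lower (38.1%, against 2.92% of all entries) and 0 higher. Their medians were -0.85, -0.38 and -0.43 at 0, 4 and 8 h against 0.02 to 0.30 for all entries. Pgk1, the X-linked phosphoglycerate kinase, was at 9401, 12894 and 12531 in WT and at 3507, 4742 and 5174 in KO, a difference of -1.38 ± 0.14 (SE; limma adjusted p = 8.12e-06). Pfkp, a platelet-type phosphofructokinase, fell by 1.65 on the log2 scale, and Aldoa and Ldha, aldolase and lactate dehydrogenase, fell by 1.12 each. Of 24 serine, one-carbon and ATF4 target genes, 4 were called lower (16.7%) and 2 higher (8.33%, against 8.12% of all entries). The 4 are biosynthetic enzymes. Shmt2, the mitochondrial serine hydroxymethyltransferase, was at 3376, 2802 and 3700 in WT and at 1057, 1447 and 1244 in KO, and Cth, Asns and Psph fell by 1.51, 0.97 and 0.93 on the log2 scale. The 2 rises, Trib3 and Chac1, are stress-induced genes. Trib3 had larger differences after 0 h (0.70, 4.07 and 2.59). Chac1 was at 0 in WT at 4 and 8 h and at 133 and 101 in KO. It was thus at least 1.79- and 1.03-fold higher in KO, which does not show a widening.

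Among the chaperones, 7 of 29 (24.1%, against 2.92% of all entries) were called lower (13 with scaling by the median of ratios). The 2 called higher were 6.90%, against 8.12% of all entries. Hspb1, the small heat shock protein Hsp27, was at 9952, 12192 and 11205 in WT and at 4318, 5956 and 4174 in KO, in contrast to its relative Hspb8. Cct7, a subunit of the cytosolic chaperonin, fell by 1.03 and Hspa8, the constitutive Hsc70, by 0.69 on the log2 scale. Hspa5, the ER chaperone BiP, and Dnajb1 rose by 1.03 ± 0.19 and 2.20 ± 0.50, and for both the 0 h differences were the smallest (0.18 and 0.77). Of 39 cell cycle genes, 4 (10.3%, against 2.92% of all entries) were called lower (9 with that scaling) and 1 (2.56%, against 8.12%) higher. In the highest of 5 bins of level, 9.50% of the entries were called lower, which bears on the cell cycle and the chaperone counts. Ccnd3, a D-type cyclin, was at 13329, 12698 and 10339 in WT and at 4309, 3887 and 3641 in KO, and its partner kinase Cdk4 fell by 0.89 on the log2 scale.

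Several of the steadiest falls were in abundant transcripts of no common list. Chchd10, a mitochondrial intermembrane protein, was at 14314, 16658 and 14999 in WT and at 3957, 3996 and 4004 in KO, a difference of -1.94 ± 0.13 (SE; limma adjusted p = 7.94e-08). Tmsb4x, the X-linked actin-binding peptide thymosin β4, was at 31070, 54573 and 56076 in WT and at 9132, 14200 and 17290 in KO, or -1.80 ± 0.08. Upp1, uridine phosphorylase, was at 3914, 4098 and 2762 in WT and at 614, 664 and 435 in KO. The hourly differences of Upp1 were -2.65, -2.61 and -2.64, with no drift over time. Csrp2, a LIM protein, fell by 2.02, Dusp9, an X-linked ERK phosphatase, by 1.96, and Ooep, a maternal-effect protein of oocytes, by 1.74 on the log2 scale. Eif4a2, a helicase of translation initiation, was called at -2.31 ± 0.41, but the WT library of 8 h carried much of that value, since WT was at 2912, 3114 and 17439 and KO at 1907, 732 and 907. Without the 8 h libraries it was -1.34, with a limma adjusted p of 0.0017. Cdkn1c, an imprinted inhibitor of the cell cycle, was at 312, 582 and 256 in WT and at 55.3, 82.5 and 23.1 in KO. It was 1 of 2 called falls among 23 imprinted genes (8.70%, against 2.92% of all entries), beside 1 rise (4.35%, against 8.12%).

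Germ line genes held several of the deepest falls. Of 23 kept, 6 were called lower (26.1%, against 2.92% of all entries) and 2 higher (8.70%, against 8.12%), with medians of -0.81, -0.37 and -1.19. Tex13b, an X-linked testis gene, was at 1034, 721 and 614 in WT and at 18.6, 0 and 52.0 in KO (-4.85 ± 0.57, limma adjusted p = 4.14e-05). Usp26, an X-linked deubiquitinase of testis, was at 567, 373 and 495 in WT and at 0, 19.6 and 22.5 in KO, and at 0 h it was at least 7.52-fold lower. The X-linked Pnma5 fell by 4.22 on the log2 scale. Taf7l, also X-linked, was called at -3.14, with 97.3, 74.2 and 304 in WT and 25.1, 0 and 0 in KO. At 8 h it was at least 3.77-fold lower, but at 4 h the WT level lay under the limit of 98.2 that a 0 in KO allows. Stra8 and Mael, autosomal genes of meiosis and of transposon silencing, fell by 2.83 and 2.34. The deepest fall of all called entries was outside this list. Islr2, a neuronal surface protein, was at 890, 828 and 742 in WT and at 0, 0 and 80.5 in KO, at least 11.8-fold lower at 0 h. Of the deepest falls at 0 h, Robo4, an endothelial guidance receptor, was at 290 in WT and 0 in KO, but at 231 and 149 at 8 h, and it was not called (limma adjusted p = 0.127).

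**Figure D3:**
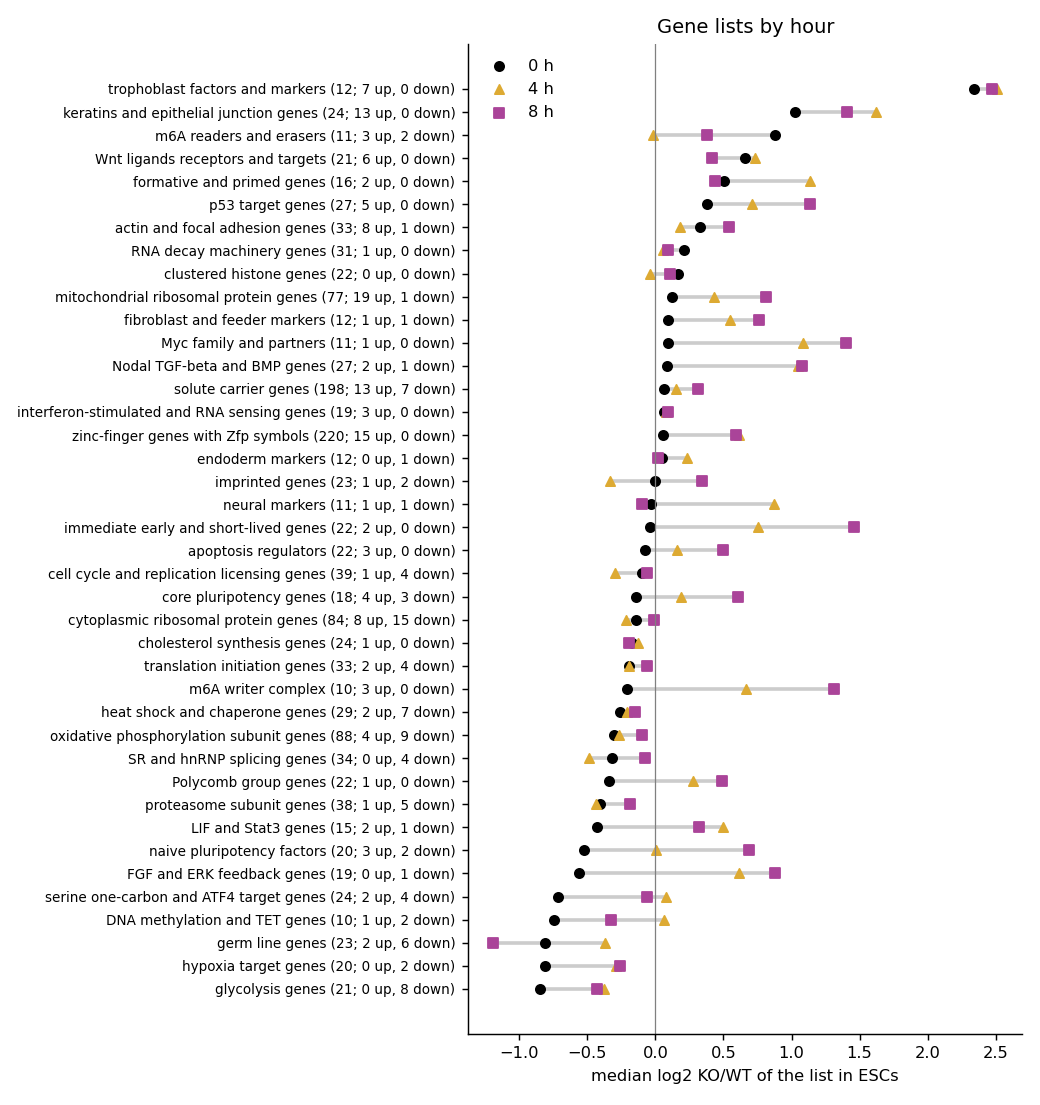
Median log2 KO/WT of each gene list with at least 10 entries kept, at 0 h (black circles), 4 h (yellow triangles) and 8 h (purple squares). Labels give the entries kept and how many limma called up and down. The trophoblast list lies at 2.34 to 2.51 at every hour, the glycolysis list at -0.85 to -0.38, and the m6A writers and the Myc family move from -0.21 and 0.09 at 0 h to 1.31 and 1.40 at 8 h.

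Among the large complexes, 24.7% of the mitochondrial ribosomal protein genes were called higher, against 8.12% of all entries, and 17.9% of the cytoplasmic ones lower, against 2.92%. In the highest of 5 bins of level, however, 9.50% of the entries were called lower. Of the cytoplasmic ones 9.52% were called higher, close to the share of all entries. Mitochondrial ribosomal protein genes leaned up, with 19 of 77 called higher and 1 lower and medians of 0.12, 0.43 and 0.81. Mrps2 was at 669, 254 and 52.3 in WT and at 1610, 1986 and 1976 in KO, and Mrpl43 had 1.48, 3.66 and 3.99. Mrpl46 and Mrps12 rose by 2.17 ± 0.29 and 2.30 ± 0.38. Cytoplasmic ribosomal protein genes had 8 called higher and 15 lower of 84 (4 and 28 with scaling by the median of ratios), with medians between -0.21 and -0.01. Rpl24 and Rpl7a fell by 0.67 and 0.66 on the log2 scale, while Rps15a and Rps2 rose by 0.79 ± 0.10 and 0.94 ± 0.15. Genes of this family have many processed copies, so reads may be shared. Oxidative phosphorylation had 4 called higher (4.55%) and 9 lower (10.2%) of 88 (22 lower with that scaling), among the falls the complex II gene Sdhb at -1.28 ± 0.22. Its medians were -0.30, -0.26 and -0.10 against 0.02, 0.22 and 0.30 for all entries. Of 38 proteasome genes, 5 (13.2%) were called lower (11 with that scaling) and 1 (2.63%) higher, the last being Psmd7 (1.86 ± 0.28). The proteasome medians were -0.40, -0.44 and -0.18, and 27 of the 38 genes (71.1%) were lower in KO at all 3 hours, against 16.1% of all entries. Of 34 SR and hnRNP genes, 4 (11.8%) were called lower (10 with that scaling) and 0 higher, led by Hnrnph2 and Hnrnph1 at -1.24 ± 0.35 and -1.07 ± 0.20. Zinc-finger genes with Zfp symbols had 15 called higher of 220 (6.82%, against 8.12% of all entries) and 0 lower (3 with that scaling), with medians of 0.06, 0.62 and 0.60. Their largest rise, Zfp639, had 1.38, 3.32 and 4.45. None of 22 clustered histone genes was called, and all 39 Hox genes lay below the minimum level.

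The untreated difference was not even along the genome. The 566 entries on chromosome 10 had a median of -0.32 at 0 h, against 0.02 for all entries, and 64.7% of them were lower in KO, against 48.8% of all. All 7 segments of 20 Mb along chromosome 10 lay below the median of all entries, at -0.48 to -0.11. On that chromosome 34 entries were called lower (6.01%, against 2.92% of all) and 20 higher (3.53%, against 8.12%). Chchd10, Csrp2, Dnmt3l, Shmt2 and Cdk4 are among the 34. The 414 entries on the X chromosome had medians of -0.17, -0.12 and -0.02 at 0, 4 and 8 h, with 37 called lower (8.94%) and 24 higher, and 8 of 9 segments of 20 Mb lay below the median of all entries. The difference of chromosome 10 from all entries at 0 h was -0.35 and that of X was -0.20, and with equal totals or median-ratio scaling they were at most 0.01 smaller. In the EBs, the chromosome 10 median was -0.43 against -0.19 for all entries, again with all 7 segments below. The X chromosome was at 0.03 in the EBs, with 0 of 9 segments below the EB median. Chromosome number in the cells was not measured here, and its part in these values was not tested.

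**Figure D4:**
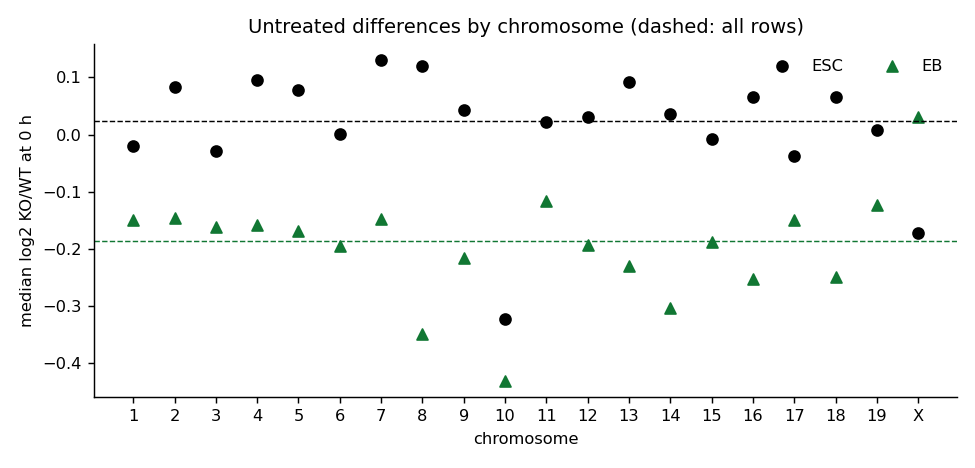
Median log2 KO/WT at 0 h of the entries on each chromosome, in ESCs (black circles) and EBs (green triangles), 1 library per genotype in each. Dashed lines are the medians of all entries, 0.02 in ESCs and -0.19 in EBs. Chromosome 10 is the lowest point in both, at -0.32 and -0.43, and X is at -0.17 in ESCs and 0.03 in EBs.

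Called entries also differed in the GC content, length and GGACT number of their transcripts, which neither the filter nor the test used. The share called higher went from 3.62% in the lowest of 5 equal bins of GC content to 12.7% in the highest. By transcript length it went from 10.5% in the shortest bin to 5.78% in the longest. The share called lower went from 5.38% in the shortest bin to 1.32% in the longest. It was 6.44% among the transcripts with no GGACT and 1.19% among those with 7 or more. Of the entries called lower, 18.9% had no GGACT, against 8.15% of those called higher and 8.63% of all. GGACT number, length and level move together here: the transcripts without GGACT had a median length of 1299 bases and a median level of 397, and those with 7 or more had 5992 bases and 181. The part of each was not tested. Level, in contrast, enters both the filter and limma's variance trend, so its bins do not describe an independent trait. By level, the share called higher was 1.24% in the lowest of 5 bins, 12.9% in the fourth and 12.1% in the highest, and the share called lower was 0.428%, 2.83% and 9.50%.

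The called ESC differences were set beside those of the same entries in EBs. Of the 948 entries called higher in ESCs, 59.8% were also higher in KO EBs at all 3 hours, against 22.4% of all entries, and 5.17% were lower at all 3. Of the 341 called lower, 16.7% were lower in KO EBs at all 3 hours, against 14.3% of all entries. At 0 h alone 82.4% of those 341 were lower in KO EBs, against 60.1% of all entries. EB medians over all entries were -0.19, 0.14 and 0.46, so the EB differences drift upwards with the hours. Unlike those of the ESC libraries, the EB column totals were uneven. At 0, 4 and 8 h they were 8.31e+06, 6.06e+06 and 3.67e+06 in WT and 7.08e+06, 6.88e+06 and 6.25e+06 in KO. The EB values above are as deposited, so the shares at all 3 hours and the drift hold these totals too. EB libraries also had more signal in families that should be silent, with 26.8% to 36.5% of 1407 such entries above 0 against 6.89% to 9.59% in the ESC libraries. The part of that signal in the comparison was not tested.

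For 150 entries (1.28%) limma found different KO/WT differences in ESCs and EBs. With equal column totals there were 375 such entries. Krt8, Krt18, Cldn6 and Cldn7 had opposite signs in the 2 cell types at every hour. Krt8 was at 2943, 3075 and 2143 in WT EBs and at 829, 1053 and 619 in KO EBs, a difference of -1.71 against 3.44 in ESCs (limma adjusted p for the difference between them = 5.21e-06). Cldn7 was at -2.07 in EBs and 2.47 in ESCs, and Dppa3 at -1.55 and 2.29. Krt7 was mixed in sign in EBs (-0.39, -1.34 and 1.02). Cldn3 was higher in KO in both cell types (1.44 in EBs, limma adjusted p for the difference = 0.377), and Krt13 had negative means in both (-1.19 in EBs, limma adjusted p = 0.653). In the other direction, Stra8 was at 2.91 in EBs and -2.83 in ESCs, Tex13b at 1.13 and -4.85, and Cobl, an actin nucleator, at 1.69 and -1.86. The entry NR_001592, which was low in the WT ESC libraries, was at 2692, 2533 and 3326 in WT EBs and at 2241, 2927 and 2105 in KO EBs. For Trp53rkb, Plekhf2 and Mrpl46, which widened in ESCs, the EB differences were 4.49, 2.94 and 2.64 against 5.03, 3.11 and 2.17, and no difference between the cell types was called. Eras was higher still in KO EBs (3.43 against 2.15, limma adjusted p = 0.47). Igf2bp3 and Apoe, a lipid carrier made by ESCs and endoderm, were lower in KO in both, at -1.38 and -1.25 in EBs and -1.56 and -1.27 in ESCs.

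**Figure D5:**
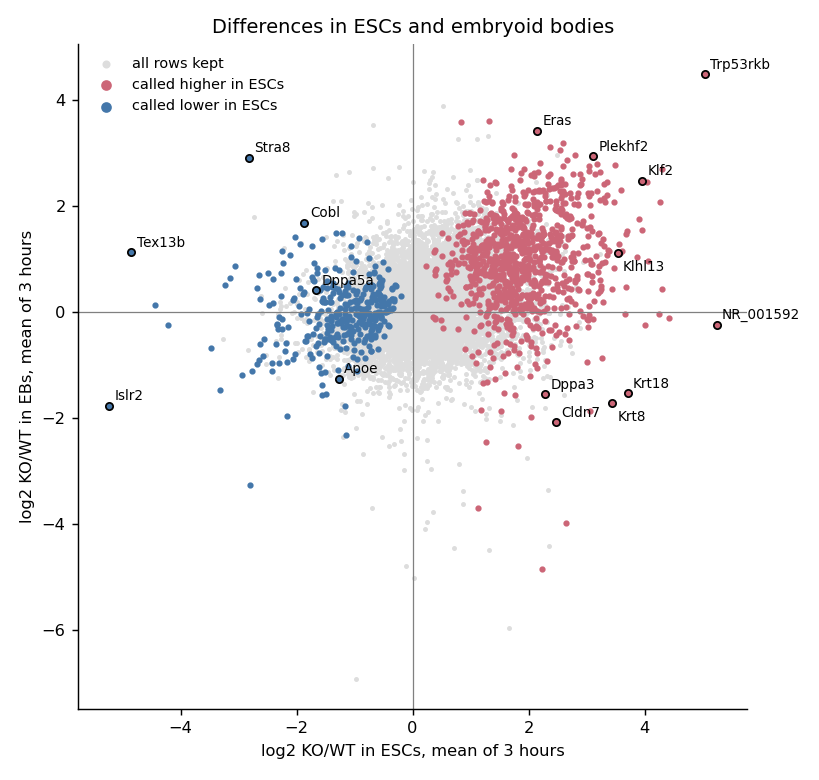
Mean log2 KO/WT over 3 hours in ESCs (x axis) and in EBs (y axis) for 11682 entries (grey), with those called higher (red) or lower (blue) in ESCs in colour and 16 genes labelled. Most red points lie above 0 in EBs, while Krt8, Krt18, Cldn7 and Dppa3 lie below, and Stra8, Tex13b and Cobl are low in ESCs and high in EBs.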

How the data were processed

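For 12 libraries the authors deposited a signal that is never below 0, the normalized level of each RefSeq transcript. Bowtie, Bowtie2 2.1.0 and CASAVA 1.8.2 are named in the submitters' processing notes, with mm10 as the build. The counting and the scaling are not given in the sources used here. Per the labels' protocols, RNA was fragmented, 3′ poly(A) ends were selected and the strand was kept. Symbols and GRCm38 coordinates came from a RefSeq gene table (19535 of 19746 entries), with 98 more from GENCODE and 113 left under their ID, and 38 identical duplicates were dropped.

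Sample titles gave the groups, each with 1 library. Hourly differences used log2(level + 10.8). limma 3.58.1 in R 4.3.3, with a trended variance prior (15.5 degrees of freedom, beside 2 residual), tested genotype with the hour as a factor over the 6 ESC libraries. A genotype by cell type term over 12 libraries left 4 residual degrees of freedom. P-values were adjusted by Benjamini and Hochberg, and tests were two-sided, with a threshold of 0.05. The fit was also run on data simulated with noise from its own variance trend. It recovered 7% of 100 changes of 1 on the log2 scale and 34% of 100 changes of 2, with 2 false calls. Most changes of these sizes were missed in that run. It held 100 changed entries of each size among 11682, whereas 1289 entries were called in the deposited data. The shares missed and falsely called in the deposited data were not tested. At 99.8% or more of the values under 100, levels were whole multiples, within 0.1, of a step of each library, and 50 steps were taken as 1 read equivalent. The 95% intervals are exact Poisson intervals on these and, like the limit of 3 read equivalents for a level of 0, cover counting error only.

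Named genes are the called entries with the largest differences (past 2-fold at 0 h, or past 1.5-fold with a mean level of at least 1000), the largest at 0 h with a level of at least 200, those that changed sign after 0 h, and up to 6 members of each list. Genes outside this rule are marked as such or are ESC markers. The comparison, its members and the lists were chosen with earlier results of these data known. Scalings, pseudocounts, filters, other fits and leaving out each hour were tried as alternatives.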

Additional observations from a re-analysis of the deposited data

Results flagged for a closer look

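The difference between KO and WT was not the same in ESCs and EBs (limma, genotype by cell type, adjusted p under 0.05) for 31 of the genes named here, and none of these is explained further. Values are the EB difference minus the ESC difference, as log2 with the SE, over 3 hours in each cell type. With a pseudocount of 1, 14 of the 31 lost this call, and 12 lost it with no variance trend, while none of the 31 reversed under either.

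Among genes higher in KO ESCs, the value was -5.48 ± 0.48 for NR_001592, -5.14 ± 0.51 for Krt8, -5.23 ± 0.67 for Krt18 and -4.24 ± 0.95 for Krt7. It was -4.54 ± 0.61 for Cldn7, -4.01 ± 0.59 for Cldn6 and -4.53 ± 0.72 for Ina, a neuronal intermediate filament. The Wnt genes Wnt7b and Fzd2 had -3.87 ± 0.73 and -4.29 ± 0.82. Dppa3 had -3.84 ± 0.68 and Dnmt3b had -2.60 ± 0.50. The cytoskeletal and surface genes Anxa2, Tpm4, Tpm1, S100a6 and Ccn1 had -3.38 ± 0.57, -3.23 ± 0.63, -2.61 ± 0.59, -2.60 ± 0.45 and -2.69 ± 0.62. Klhl13 and Hspb8 had -2.43 ± 0.53 and -2.27 ± 0.54, and they were higher in KO in both cell types.

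Among genes lower in KO ESCs, the value was 5.98 ± 0.74 for Tex13b, 5.74 ± 0.80 for Stra8, 4.57 ± 0.85 for Usp26, 3.98 ± 0.76 for Pnma5 and 3.8 ± 0.93 for Taf7l. It was 3.55 ± 0.54 for Cobl and 3.47 ± 0.86 for Islr2. The abundant transcripts Chchd10, Ooep, Dppa5a, Upp1 and Pgk1 had 2.39 ± 0.42, 2.41 ± 0.58, 2.07 ± 0.43, 2.04 ± 0.49 and 1.93 ± 0.44. Etv4, an ETS factor induced by ERK signalling, had 2.11 ± 0.48.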

How the results depend on the processing

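By replicate number, no paired analysis was possible because each group has 1 library and all carry the same number. KO and WT libraries are paired by hour instead, and the fit has that pairing as its hour term.

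The count called higher (948) stayed within 1.5-fold under 8 alternatives and was 266 with genotype alone and no hour term, 0 with no variance trend, 168 without the 4 h libraries and 553 without the 8 h libraries. The count called lower (341) was 634 with median-ratio scaling, 95 with no hour term, 0 with no variance trend and 64 without the 4 h libraries. Leaving out the 0 h or the 8 h libraries instead, which removes as many, gave 338 and 334 called lower. The cause of these changes was not tested. Past 2-fold at 0 h, 3012 entries were higher and 2637 lower with no filter on low levels, and 664 and 578 with a mean level of at least 200, where fewer entries are counted. A limit of 1.5-fold gave 2999 and 2656, and one of 4-fold gave 305 and 197. The set higher at all 3 hours went from 3278 to 2003 with a mean level of at least 200. The 150 entries with different ESC and EB values became 375 with equal column totals, 343 with median-ratio scaling and 82 with a pseudocount of 1.

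Of the named genes that were called, none changed sign under these alternatives, but each lost its call with no variance trend, 66 of 130 without the 4 h libraries and 59 with no hour term. Of those not called, Esrrb reversed without the 8 h libraries (-0.13) and Cd79b without the 0 h libraries (-1.04). Depth limits what can be seen. An entry that was not called may still differ, and the fit has 2 residual degrees of freedom.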

Other observations

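Other groups of genes had few calls or mixed values. Of 27 Nodal, TGF-β and BMP genes kept, 2 were called higher (7.41%) and 1 lower (3.70%), close to the 8.12% and 2.92% of all entries. Their medians, however, were 0.09, 1.05 and 1.08 at 0, 4 and 8 h, against 0.02, 0.22 and 0.30 for all entries. At all 3 hours 13 of them (48.1%) were higher in KO, against 28.1% of all entries, and 1 was lower. Bmp7, a BMP ligand, was at 23.0, 24.7 and 32.7 in WT and at 106, 182 and 219 in KO (2.21 ± 0.65, limma adjusted p = 0.0351). Of 15 LIF and Stat3 genes 2 were called higher and 1 lower, and the kinase gene Pim1 had 0.81, 1.85 and 3.06. FGF and ERK feedback genes had a median of -0.56 at 0 h and 0.88 at 8 h, with 1 of 19 called, the fall of Etv4. Of 22 immediate early and short-lived genes, Ccn1 and Dusp1 were called higher, and Ccn1, a matrix protein, was at 670, 24.7 and 53.6 in WT and at 1903, 224 and 234 in KO.

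Of 33 translation initiation genes, 2 were called higher and 4 lower (8 lower with scaling by the median of ratios), with Eif1a at 2.92 ± 0.32 as the largest rise. Exosc4, an exosome subunit (2.56 ± 0.41), was the only one called of 31 RNA decay genes (3 were called lower with that scaling), and Phc2 (1.63 ± 0.38) the only one of 22 Polycomb genes. Of 198 solute carriers 13 were called higher (6.57%, against 8.12% of all entries) and 7 lower (3.54%, against 2.92%). Higher and lower calls were 1 and 0 of 24 cholesterol synthesis genes and 0 and 2 of 20 hypoxia targets. Of 12 endoderm markers, Apoe was called lower and 0 were called higher. Among mesoderm markers 1 of 5 was called, Mesp1 (1.21 ± 0.32), among blood and endothelium markers 1 of 4, Pecam1 (1.36 ± 0.39), and among neural markers the rise of Ina and the fall of Islr2.

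Tmem121, a membrane protein, had a difference of 2.22 at 0 h and 3.94 at 4 h. At 8 h it was at 0 in WT and at 1160 in KO, at least 11.8-fold higher.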
